A study of Mus musculus with 4 samples.

Results

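The genes described here are 10 genes of the NF-kB pathway, out of 36445 in the deposited table, taken by their symbols. They are the 5 subunit genes Nfkb1, Nfkb2, Rel, Rela and Relb, the 3 IkB inhibitor genes Nfkbia, Nfkbib and Nfkbie, and the feedback genes Tnfaip3 and Birc3. All 10 were found once in the table, and all 10 reached the level needed for testing. They were measured in MC38, a mouse colon cancer cell line, by sequencing of polyadenylated RNA. The study compared 2 libraries of MC38 cells given 5-fluorouracil (5-FU) at 1 mM for 24 h with 2 libraries of MC38 cells given PBS for 24 h. No other genotype, strain or treatment is named in the labels, and MC38 is 1 line, so the comparison is within a single cell line in culture. 5-FU is a pyrimidine analogue used against colon cancer, which after uptake inhibits thymidylate synthase and is built into nucleic acids.

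NF-kB transcription factors are dimers of Rel family subunits. In resting cells IkB proteins hold many of these dimers in the cytoplasm, and IkB kinase marks the IkB proteins for destruction, which frees the dimers to enter the nucleus. Several genes of the pathway are themselves NF-kB targets, among them Nfkbia, Tnfaip3, Birc3, Nfkb2 and Relb, so their transcripts are commonly read as a feedback arm of the pathway.

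The estimated depth was 20.8 and 20.6 M reads in 5-FU replicates 1 and 2 and 41.3 and 41.6 M reads in PBS replicates 1 and 2. The PBS pair differed more between replicates (median absolute log2 difference 0.271 over 11644 tested genes) than the 5-FU pair did (0.0729). The mean chi-square per gene on estimated reads, for genes of 20 to 200 reads, was 1.54 between the 5-FU libraries and 8.51 between the PBS libraries, so each pair differed beyond counting error and was counted as 2 samples. Whether the replicates are separate cultures is not in the labels, so p-values measure only the spread between these libraries, which may be technical. None of 12 colon epithelial markers, Epcam, Cdh1 and Krt8 among them, passed 0.823 FPKM in any library, and their sum was 1.87 and 1.77 FPKM in 5-FU and 0.792 and 1.57 FPKM in PBS. The defining markers of colon epithelium were thus near absent from the cells labelled as colon cancer. Among 10 leukocyte markers Ptprc, the pan-leukocyte gene, stayed at or below 0.0342 FPKM and Cd3e was listed at 0 in all 4 libraries. Fcer1g, an Fc receptor subunit gene on that list, was higher in 5-FU, at 1.26 and 2.18 FPKM against 0.151 and 0.120 FPKM in PBS (limma adjusted p = 0.00879). It reached 1 FPKM, the level needed for testing, in 5-FU only. In Lyz2 and Cd68, the other leukocyte markers tested, the groups overlapped. The leukocyte list summed to 21.7 and 21.1 FPKM in 5-FU and 8.07 and 22.6 FPKM in PBS, most of it from the lysosomal gene Cd68. The 8 fibroblast markers summed to 8.73 and 8.40 FPKM in 5-FU and 14.4 and 26.5 FPKM in PBS, and the 5 endothelial markers to at most 0.427 FPKM in any library. Of the fibroblast markers, Pdgfra fell to a mean of 5.25 FPKM in 5-FU against 14.4 FPKM in PBS (limma adjusted p = 0.0204). Pdgfrb fell to 0.577 FPKM against 3.71 FPKM (0.0158) and reached 1 FPKM in PBS only. In Col1a1, also tested, the groups overlapped. The part of these marker differences in the results below was not tested.

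Of the 10 genes, 8 matched a RefSeq promoter window (GRCm38.p6, 250 bases before to 50 bases after a transcription start), with 11 windows in all. The NF-kB consensus, the degenerate site bound by Rel dimers, was searched on both strands. It occurred in a window of 5 of these 8 genes (Nfkb2, Rel, Nfkbia, Nfkbie and Tnfaip3), against 2581 of 27025 genes with a window (9.55%). The windows of Rela, Nfkbib and Birc3 held no match. Some RefSeq starts lie inside the GENCODE gene body, among them that of Nfkbib and all those of Nfkb2. These counts are a description of letters in the windows, not of binding. The windows of 4 genes that passed the test described below are shown, Nfkb2 and Nfkbia with matches and Rela and Nfkbib without, and capitals mark the matches.
Nfkb2, chr19:46304487-46304786, plus strand: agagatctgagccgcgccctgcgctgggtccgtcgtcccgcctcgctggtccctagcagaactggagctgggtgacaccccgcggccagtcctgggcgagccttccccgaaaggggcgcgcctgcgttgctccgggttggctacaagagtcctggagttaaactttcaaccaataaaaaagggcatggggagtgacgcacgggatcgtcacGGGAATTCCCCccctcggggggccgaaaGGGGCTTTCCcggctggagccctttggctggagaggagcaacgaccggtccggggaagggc
Nfkbia, chr12:55492598-55492897, minus strand: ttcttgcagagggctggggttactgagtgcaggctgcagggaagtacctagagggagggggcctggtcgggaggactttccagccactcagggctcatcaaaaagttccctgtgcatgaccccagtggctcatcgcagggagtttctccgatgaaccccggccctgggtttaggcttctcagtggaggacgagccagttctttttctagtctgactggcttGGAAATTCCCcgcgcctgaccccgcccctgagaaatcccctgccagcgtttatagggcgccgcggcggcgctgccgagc
Rela, chr19:5637291-5637590, plus strand: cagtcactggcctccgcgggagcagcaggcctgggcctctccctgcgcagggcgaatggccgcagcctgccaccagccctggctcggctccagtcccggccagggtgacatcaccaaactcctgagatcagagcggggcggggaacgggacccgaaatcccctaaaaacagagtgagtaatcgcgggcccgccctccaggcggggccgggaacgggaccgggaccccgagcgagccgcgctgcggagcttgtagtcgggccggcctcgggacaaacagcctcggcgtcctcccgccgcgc
Nfkbib, chr7:28766595-28766894, minus strand: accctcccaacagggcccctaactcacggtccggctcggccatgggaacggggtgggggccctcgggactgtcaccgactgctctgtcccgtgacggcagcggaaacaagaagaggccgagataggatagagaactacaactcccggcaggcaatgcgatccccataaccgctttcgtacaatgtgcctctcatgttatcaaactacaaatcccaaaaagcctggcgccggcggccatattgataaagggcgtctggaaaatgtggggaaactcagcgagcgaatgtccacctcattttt
In Nfkb2 the run of capitals that begins at -39, counted from the transcription start, holds 2 overlapping matches, GGGAATTCCC and GGAATTCCCC, and a further match, GGGGCTTTCC, begins at -11. The match in Nfkbia, GGAAATTCCC, begins at -29. In Rel the matches GGGAAATCCC and GGAAATCCCC overlap from -92, Tnfaip3 held GGGACACCCC at -125 and GGAAATCCCC at -12, and Nfkbie held GGGGGATTCC at -106. The 2 other windows of Nfkb2 overlap each other and share the match GGGACTTTCC.

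After 5-FU, 3 of the 10 genes were higher, Rela, Nfkbib and Nfkbia, 3 were lower, Nfkb1, Nfkb2 and Birc3, and Rel, Relb, Nfkbie and Tnfaip3 did not pass. Levels are in FPKM (fragments scaled by gene length and by library size), and differences are on the log2(FPKM + 1) scale, 5-FU minus PBS, tested with limma over the 11644 genes that reached 1 FPKM in 2 or more libraries. A Benjamini-Hochberg adjusted p under 0.05 counted as passing. Birc3 reached 1 FPKM in the PBS libraries only, so the filter favoured a lower call for it. Across all tested genes 53.3% passed, 22.1% higher and 31.2% lower, so 6 of 10 is close to the background and says nothing particular about these genes as a set. The 5-FU libraries lay wholly above or below the PBS libraries in 8 of the 10 genes, against 81% of all tested genes. The median difference of the 10 genes was 0.15 log2, beside -0.10 log2 over all tested genes. With median-ratio scaling of the libraries 5 were higher and 3 lower, because Rel and Relb then passed too. Across all 11644 tested genes 3081 were then higher and 3283 lower. Without 5-FU replicate 1 or without 5-FU replicate 2 none of the 10 passed in limma, where the spread comes from the wider PBS pair alone. Of the 10, 1 was then higher and 0 lower at an unadjusted p under 0.05 without 5-FU replicate 1, and 2 were higher and 1 lower without 5-FU replicate 2. In bulk RNA a change in the share of cells that express a gene and a change in RNA per cell cannot be told apart.

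**Figure D1:**
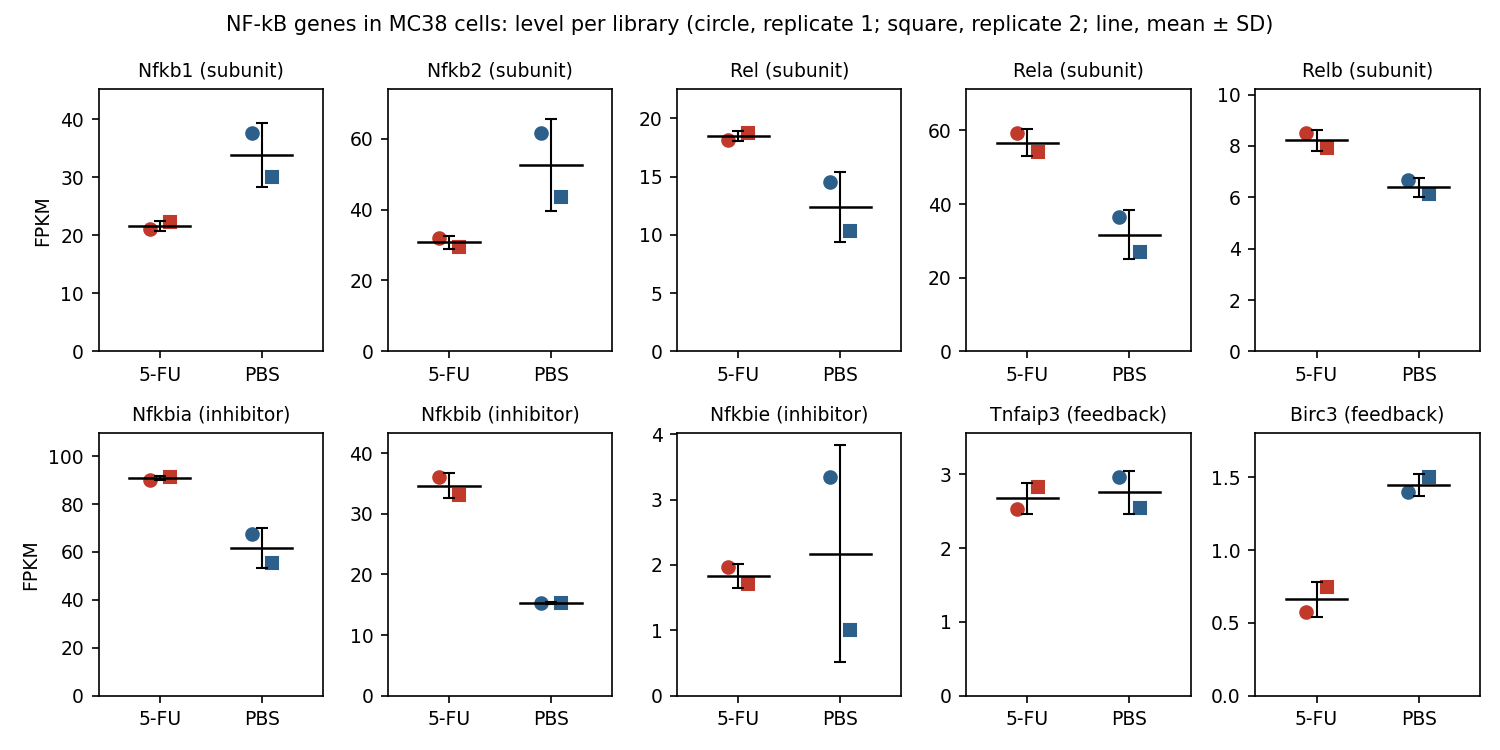
FPKM of each of the 10 NF-kB genes in the 2 5-FU libraries (left, red) and the 2 PBS libraries (right, blue); circles are replicate 1, squares replicate 2, the black line the mean and the bar ± SD. Rela, Rel, Relb, Nfkbia and Nfkbib lie higher in both 5-FU libraries, Nfkb1, Nfkb2 and Birc3 lie lower, and the groups overlap in Nfkbie and Tnfaip3.

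In order of mean level in 5-FU cells the 10 genes ran from Nfkbia (90.8 ± 0.761 FPKM) through Rela (56.7 ± 3.76), Nfkbib (34.6 ± 2.06), Nfkb2 (30.8 ± 1.76), Nfkb1 (21.7 ± 0.865), Rel (18.5 ± 0.421), Relb (8.23 ± 0.408), Tnfaip3 (2.68 ± 0.212) and Nfkbie (1.83 ± 0.184) to Birc3 (0.660 ± 0.120; SD, n = 2 each). No neighbours in this order overlapped in their 2 libraries. In PBS cells the order was Nfkbia (61.6 ± 8.46 FPKM), Nfkb2 (52.5 ± 12.9), Nfkb1 (33.8 ± 5.45), Rela (31.7 ± 6.73), Nfkbib (15.3 ± 0.0854), Rel (12.4 ± 2.99), Relb (6.39 ± 0.381), Tnfaip3 (2.76 ± 0.296), Nfkbie (2.17 ± 1.66) and Birc3 (1.45 ± 0.0749; SD, n = 2 each). There the ranges of Nfkbia and Nfkb2 overlapped, as did those of Nfkb1 and Rela, of Tnfaip3 and Nfkbie, and of Nfkbie and Birc3. Rela stood above Nfkb1 and Nfkb2 in 5-FU cells and below both in PBS cells.

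Rela encodes the subunit that carries the strong activation domain of the common NF-kB heterodimer (ENSMUSG00000024927, chromosome 19, 5637483 to 5648130, plus strand, GRCm38). It measured 59.4 and 54.0 FPKM in 5-FU replicates 1 and 2, against 36.5 and 27.0 FPKM in PBS replicates 1 and 2. Both 5-FU libraries lay above both PBS libraries. The mean was 1.79-fold higher in 5-FU (log2 difference 0.83 ± 0.18 SE, limma adjusted p = 0.0177). Without 5-FU replicate 1 the adjusted p was 0.146, and without 5-FU replicate 2 it was 0.113.

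Rel encodes c-Rel, a subunit best known from lymphocytes (ENSMUSG00000020275, chromosome 11, 23736847 to 23770970, minus strand). Its level was 18.2 and 18.8 FPKM in 5-FU against 14.5 and 10.3 FPKM in PBS. The groups did not overlap, yet the PBS libraries stood 0.46 log2 apart. Its log2 difference of 0.56 (95% interval 0.064 to 1.05, unadjusted) did not pass (limma adjusted p = 0.0606). Relb, the partner of the Nfkb2 product in the non-canonical branch of the pathway (ENSMUSG00000002983, chromosome 7, 19606217 to 19629438, minus strand), measured 8.52 and 7.94 FPKM in 5-FU and 6.66 and 6.12 FPKM in PBS. The Relb groups also did not overlap, with a log2 difference of 0.32 (95% interval -0.020 to 0.66, adjusted p = 0.0952). Both passed, as higher, with median-ratio scaling (adjusted p = 0.0270 for Rel and 0.0433 for Relb) and with quantile normalization (0.0355 and 0.0171). They did not with no filter on low values (0.136 for Rel and 0.109 for Relb), with FPKM rescaled after mitochondrial and ribosomal protein genes were taken out (0.114 and 0.213), without 5-FU replicate 1 (0.277 and 0.566) or without 5-FU replicate 2 (0.310 and 0.449). Passes without a PBS library rest on the spread of the closer 5-FU pair alone, under which 4385 of all tested genes were higher and 4975 lower without PBS replicate 1, and they carry no weight here.

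Nfkb1 and Nfkb2, which encode the precursor proteins that are processed to DNA-binding subunits without an activation domain and whose unprocessed forms act as IkB-like inhibitors, were both lower. For Nfkb1 (ENSMUSG00000028163, chromosome 3, 135584655 to 135691547, minus strand) the values were 21.05 and 22.3 FPKM in 5-FU and 37.7 and 30.0 FPKM in PBS. Every 5-FU value lay below every PBS value. The mean was 1.56-fold lower in 5-FU (log2 difference -0.61 ± 0.15 SE, limma adjusted p = 0.0261; 0.212 and 0.174 without 5-FU replicates 1 and 2).

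Nfkb2 (ENSMUSG00000025225, chromosome 19, 46304320 to 46312385, plus strand) measured 32.0 and 29.5 FPKM in 5-FU and 61.7 and 43.4 FPKM in PBS. The groups did not overlap, and the PBS libraries differed by 0.50 log2. The mean was 1.71-fold lower in 5-FU (log2 difference -0.73 ± 0.19 SE, adjusted p = 0.0328; 0.153 and 0.196 without 5-FU replicates 1 and 2). Of the 4584 exonic bases of Nfkb2, 299 overlap exons of Psd on the opposite strand, and Psd was higher in both 5-FU libraries, at 9.95 and 9.65 FPKM in 5-FU and 4.24 and 3.07 FPKM in PBS. How strand was treated in the counting is not stated in the sources at hand, so reads of that stretch cannot be assigned to either gene. A noncoding gene of the opposite strand, AC114539.1, overlaps 531 exonic bases of Nfkb2 and was not analysed here.

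Within a library the ratio of one gene to another does not depend on how libraries are scaled. Nfkb1 and Nfkb2 together made up 38.1% and 39.1% of the summed FPKM of the 5 subunit genes in 5-FU replicates 1 and 2, against 63.3% and 62.9% in PBS replicates 1 and 2. Rela made up 42.7% and 40.8% in 5-FU and 23.2% and 23.1% in PBS. The PBS libraries, which stood apart in the level of each of these genes, were close in these shares. The ratio of Rela to Nfkb1 was 2.82 and 2.43 in 5-FU and 0.968 and 0.900 in PBS, and the ratio of Relb to Nfkb2 was 0.266 and 0.269 in 5-FU and 0.108 and 0.141 in PBS. The sum over the 5 subunit genes was 139.1 and 132.5 FPKM in 5-FU and 157 and 116.8 FPKM in PBS, so the sums of the groups overlapped while the shares did not. These shares are transcript levels and not protein, and no test was run on them, since the genes were chosen together.

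**Figure D2:**
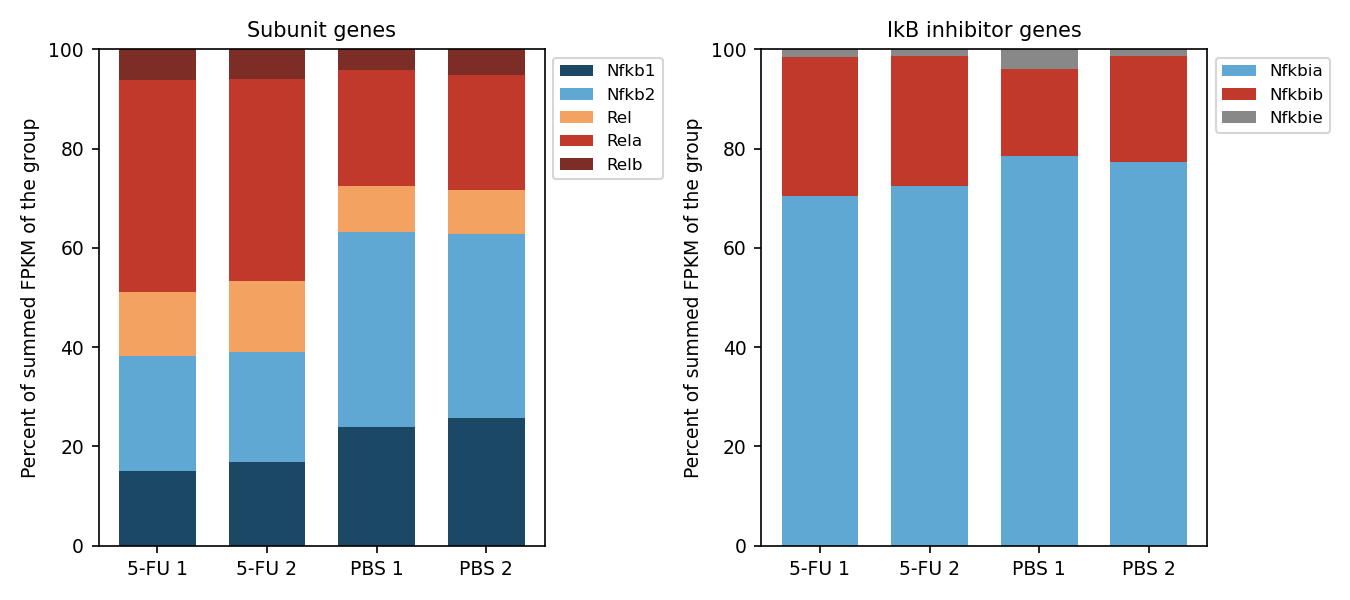
Share of each gene in the summed FPKM of the 5 subunit genes (left panel) and of the 3 IkB inhibitor genes (right panel), in percent, for each of the 4 libraries. Rela takes 42.7% and 40.8% of the subunit sum in the 5-FU bars and 23.2% and 23.1% in the PBS bars, and Nfkbib takes 28.1% and 26.3% of the inhibitor sum in 5-FU and 17.7% and 21.3% in PBS.

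Among the inhibitors, Nfkbib showed the largest difference of the 10 genes. It encodes IkB beta, which is degraded more slowly than IkB alpha in many cells (ENSMUSG00000030595, chromosome 7, 28758251 to 28767512, minus strand). It measured 36.1 and 33.2 FPKM in 5-FU, about 1629 and 1483 reads, against 15.2 and 15.3 FPKM in PBS, about 1365 and 1385 reads. The PBS libraries were close here (0.011 log2 apart, lower in replicate 1). The mean was 2.265-fold higher in 5-FU (log2 difference 1.13 ± 0.11 SE, limma adjusted p = 0.00368). Without 5-FU replicates 1 and 2 in turn the log2 difference of Nfkbib was 1.07 and 1.19, and it did not pass. It passed, as higher, in the other 11 of 13 alternative settings. Of these, the passes without PBS replicate 1 or 2 (log2 difference 1.12 and 1.13) carry no weight, as for Rel and Relb. Exons of Ccer2 on the opposite strand overlap 314 of its 2169 exonic bases, and Ccer2 stayed at or below 0.0914 FPKM. Exons of Sirt2, also opposite, overlap 42 bases, and Sirt2 measured 15.1 and 13.8 FPKM in 5-FU and 13.2 and 21.2 FPKM in PBS, so reads there cannot be assigned with certainty.

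Nfkbia encodes IkB alpha, the inhibitor that NF-kB itself induces within minutes to hours of activation (ENSMUSG00000021025, chromosome 12, 55489410 to 55492647, minus strand). It was the most abundant of the 10 genes in either group, at 90.2 and 91.3 FPKM in 5-FU and 67.6 and 55.6 FPKM in PBS. The 5-FU values were close to each other and above both PBS values. The mean was 1.47-fold higher in 5-FU (log2 difference 0.56 ± 0.13 SE, adjusted p = 0.0245). It no longer passed in 5 of 13 alternatives, with no filter on low values (adjusted p = 0.0616), with quantile normalization (0.0649), with FPKM rescaled after mitochondrial and ribosomal protein genes were taken out (0.0535), and without 5-FU replicate 1 or 2 (0.191 and 0.202).

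Nfkbie, which encodes IkB epsilon (ENSMUSG00000023947, chromosome 17, 45555703 to 45563169, plus strand), measured 1.96 and 1.70 FPKM in 5-FU and 3.35 and 1.00 FPKM in PBS. The groups overlapped, since both 5-FU values fell between the PBS values, which stood 1.12 log2 apart. No difference was detectable (log2 difference -0.060, 95% interval -1.09 to 0.97, adjusted p = 0.907). Its direction changed with the PBS library used, at 0.50 log2 without PBS replicate 1 and -0.62 log2 without PBS replicate 2. With a lone PBS library the spread comes from the closer 5-FU pair, so neither is given as a call. The difference was also positive with median-ratio scaling (0.012 log2), with quantile normalization (0.18) and without 5-FU replicate 2 (0.0064). As a sum, the 3 inhibitor transcripts reached 128.3 and 126.2 FPKM in 5-FU and 86.1 and 71.9 FPKM in PBS. Relative to the 5 subunit genes this was a ratio of 0.922 and 0.952 in 5-FU and 0.549 and 0.616 in PBS. The ratio of Nfkbia to Nfkbib was 2.50 and 2.76 in 5-FU and 4.44 and 3.62 in PBS.

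**Figure D3:**
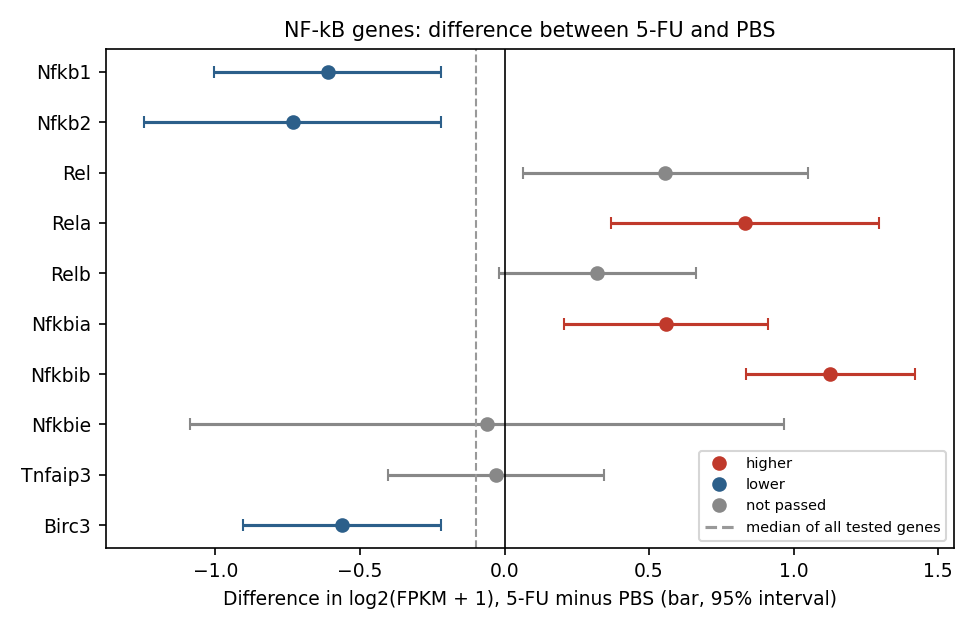
Difference in log2(FPKM + 1), 5-FU minus PBS, for each of the 10 genes with its unadjusted 95% interval; red genes passed as higher, blue as lower and grey did not pass, and the dashed line is the median of all tested genes at -0.10. Nfkbib stands highest at 1.13 and Nfkb2 lowest at -0.73, and the interval of Nfkbie is the widest. With 0.1 added to FPKM in place of 1 (not drawn), Birc3 was lower than Nfkb2, at -1.035 against -0.7495.

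The feedback genes were the lowest of the set together with Nfkbie. Tnfaip3 encodes a ubiquitin-editing enzyme that shuts down signalling to IkB kinase (ENSMUSG00000019850, chromosome 10, 19000910 to 19015657, minus strand). It measured 2.53 and 2.83 FPKM in 5-FU and 2.97 and 2.55 FPKM in PBS, about 380 and 421 reads in 5-FU and 886 and 766 reads in PBS. The groups overlapped, and no difference was detectable (log2 difference -0.031, 95% interval -0.40 to 0.34, adjusted p = 0.871). It passed in 0 of 12 alternative settings, with a lowest limma adjusted p of 0.129 under quantile normalization. Its difference was positive in 4 of these settings and negative in 8, from -0.11 to 0.29 log2.

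Birc3 encodes a ubiquitin ligase of the inhibitor of apoptosis family that acts at tumour necrosis factor receptors (ENSMUSG00000032000, chromosome 9, 7848699 to 7873186, minus strand). It measured 0.575 and 0.745 FPKM in 5-FU, about 60 and 77 reads, and 1.40 and 1.50 FPKM in PBS, about 289 and 313 reads. Both 5-FU values lay below both PBS values. The mean was 2.19-fold lower in 5-FU (log2 difference -0.56 ± 0.13 SE, limma adjusted p = 0.0228), and the scale understates the change of so low a gene. Without 5-FU replicates 1 and 2 in turn the log2 difference was -0.49 and -0.64. Birc3 reached 1 FPKM in the PBS libraries only, so the filter admitted it through the group where it was higher. That favours a lower call. With no filter on low values it did not pass (limma adjusted p = 0.0603). Of the 50-base stretches of Birc3 transcripts, 7.56% also occur in transcripts of other genes, its paralog Birc2 among them, so some reads may be shared. Birc2, the neighbouring family member, also fell, to 5.51 ± 0.0274 FPKM in 5-FU against 9.24 ± 0.686 FPKM in PBS (SD, n = 2 each; adjusted p = 0.0150), and was 9.55 and 7.42 times as abundant as Birc3 in 5-FU and 6.97 and 5.83 times in PBS.

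Over the 4 libraries, the named genes whose profile of log2(FPKM + 1), centred on its mean, was nearest that of Nfkbib were Sort1, Pdcd7 and Arg1, at distances of 0.0312, 0.0387 and 0.0418 among 10474 genes. Pdcd7 measured 24.1 and 22.5 FPKM in 5-FU and 10.1 and 10.5 FPKM in PBS. Sort1 (1.33 and 1.13 FPKM in 5-FU, 0.0347 and 0.0125 in PBS) and Arg1 (1.40 and 1.18 FPKM in 5-FU, 0.0328 and 0.0163 in PBS) were far lower in level. The 1 added to each FPKM compresses such low PBS values. As ratios of FPKM, Sort1 and Arg1 rose far more than Nfkbib did (2.265-fold). With 4 libraries in 2 groups such likeness cannot be told apart from the group difference itself.

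The rest of the pathway was described by 5 lists of 113 genes, of which 89 were tested. Of these, 24 were higher and 23 lower, and 42 did not pass, which is 52.8% called against 53.3% of all tested genes. The share called was 56.2% for the inhibitor and feedback list and 52.2% for the kinase and ubiquitin list. It was 50% for receptors and adaptors, 50% for the 2 tested ligands and 54.2% for target genes. With quantile normalization the pathway count was 23 higher and 14 lower, beside 2946 higher and 2825 lower of 11644 tested genes. Without 5-FU replicates 1 and 2 in turn, 1 and 1 were higher and 0 and 1 lower in limma; at an unadjusted p under 0.05 these were 15 and 12 higher and 11 and 11 lower. The median log2 difference was -0.075, beside -0.10 over all tested genes. Among the list genes named as higher or lower, other than Il6 and Cxcl5, each call was lost when either 5-FU library was left out. Il6 and Csf2 reached 1 FPKM in 5-FU only, and Cxcl5 and Tlr4 in PBS only. The filter admitted these genes through the group where they were higher, which favours a call in that direction. With no filter on low values Il6, Csf2 and Cxcl5 passed (limma adjusted p = 0.0199, 0.0311 and 0.0208) and Tlr4 did not (0.0587). With quantile normalization the calls of Tax1bp1 (adjusted p = 0.110), Cyld (0.175), Skp1a (0.0684), Btrc (0.1225), Birc2 (0.0684) and Tnfsf12 (0.0797) were lost. With no filter on low values those of Bcl3 (0.0742), Tax1bp1 (0.0982), Cyld (0.0846), Map3k14 (0.105), Skp1a (0.0542), Btrc (0.0646), Irak2 (0.0958), Tlr4 (0.0587), Tnfsf12 (0.0787), Cxcl10 (0.0761) and Cxcl1 (0.0773) were lost.

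Of 16 tested inhibitor and feedback genes outside the 10, 4 were higher and 5 lower (median -0.10 log2); the split was 4 and 3 with median-ratio scaling or quantile normalization, and 2 and 5 with FPKM rescaled after mitochondrial and ribosomal protein genes were taken out. Nfkbid, which encodes the nuclear IkB protein IkBNS, showed the largest rise in the list, to 22.1 ± 0.0498 FPKM in 5-FU against 4.55 ± 1.73 FPKM in PBS (SD, n = 2 each; 4.86-fold, limma adjusted p = 0.00460). Tnip1, whose product works with the Tnfaip3 enzyme, rose 3.02-fold, to 22.7 FPKM against 7.51 FPKM in PBS (adjusted p = 0.00345). Bcl3, another nuclear IkB protein gene, and Tax1bp1, an adaptor of the Tnfaip3 enzyme, rose by 0.64 and 0.54 log2. N4bp1, Otud7b, Itch and the deubiquitinase gene Cyld fell by 1.05, 0.79, 0.67 and 0.54 log2. Tnip3 and Pdlim2 were too low to test.

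The list of kinases and ubiquitin machinery held 6 genes higher and 6 lower of 23 tested (median -0.28 log2), and 5 higher and 3 lower with quantile normalization. The kinase genes Map3k8 and Map3k14 rose 2.63-fold and 2.55-fold (adjusted p = 0.00818 and 0.0301). They reached 4.05 and 3.03 FPKM in 5-FU against 1.54 and 1.19 FPKM in PBS. Ube2n, the conjugating enzyme that builds signalling ubiquitin chains, rose 1.98-fold, and Skp1a, a subunit of the ligase that tags IkB proteins, rose by 0.65 log2. Tab1, an activator of the kinase Map3k7, fell 2.84-fold, to 2.63 FPKM in 5-FU against 7.45 FPKM in PBS (adjusted p = 0.00410). Xiap fell by 0.83 log2, and Btrc, which recognises phosphorylated IkB, by 0.83 log2, to 3.68 FPKM in 5-FU against 7.38 FPKM in PBS. Fbxw11, the paralog of Btrc, was more abundant and was higher, at 51.7 FPKM in 5-FU against 34.2 FPKM in PBS (adjusted p = 0.0135). The 3 core IkB kinase genes did not pass. Chuk measured 16.0 ± 0.876 FPKM in 5-FU and 21.5 ± 3.43 FPKM in PBS (SD, n = 2 each; adjusted p = 0.0848). Ikbkb measured 2.66 ± 0.0501 FPKM in 5-FU and 3.0 ± 0.808 FPKM in PBS (adjusted p = 0.629). Ikbkg, the regulatory subunit, measured 8.04 ± 0.0871 FPKM in 5-FU and 12.4 ± 2.65 FPKM in PBS (adjusted p = 0.0527).

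Of 24 tested receptor and adaptor genes, 5 were higher and 7 lower (median -0.019 log2), and 8 higher and 4 lower with quantile normalization. Tnfrsf12a, the receptor for the cytokine encoded by Tnfsf12, rose 2.84-fold, to 389.6 ± 3.17 FPKM in 5-FU against 137.2 ± 36.3 FPKM in PBS (SD, n = 2 each; adjusted p = 0.00585). Myd88, the adaptor of most Toll-like receptors, rose 2.67-fold, and Irak2 and Traf5 rose by 0.78 and 0.74 log2. Ticam1, the adaptor of the Myd88-independent Toll-like receptor branch, fell 4.04-fold, to 1.12 FPKM in 5-FU against 4.53 FPKM in PBS. Tlr4, Tradd and Tnfrsf1b fell by 1.26, 1.21 and 1.06 log2, and by 4.57-fold, 2.62-fold and 2.28-fold in mean FPKM. The log2 scale understates the change of Tlr4, which was low, at 0.674 FPKM in 5-FU and 3.08 FPKM in PBS. Of 11 ligands, only Tnfsf12 and Il33 were high enough to be tested. Tnf stayed at or below 0.264 FPKM and Il1b at or below 0.0634 FPKM in every library. Tnfsf12 fell to 1.24 FPKM in 5-FU against 2.43 FPKM in PBS (adjusted p = 0.0228), and Il33 measured 1.88 ± 0.0483 FPKM in 5-FU and 5.53 ± 3.24 FPKM in PBS (SD, n = 2 each; adjusted p = 0.0632).

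Of 24 tested target genes, 9 were higher and 4 lower (median 0.13 log2). That is 54.2% called, beside 53.3% of all tested genes. Of the 32 listed, 1 was not found in the table. With quantile normalization 6 of the 24 were higher and 4 lower. Icam1, Cxcl2, Ccl20, Csf3, Mmp9, Plau and Nuak2 were too low to test. Csf3 measured 0.884 and 0.858 FPKM in 5-FU and 0.0342 and 0.0510 FPKM in PBS. Icam1 measured 0.945 and 0.783 FPKM in 5-FU and 0.152 and 0.0757 FPKM in PBS. Ccl20 and Nuak2 were also higher in both 5-FU libraries, and the groups overlapped in Cxcl2, Mmp9 and Plau. With no filter Csf3, Icam1 and Ccl20 passed (limma adjusted p = 0.0168, 0.0220 and 0.0420). The cytokine gene Il6 rose to 2.52 and 1.92 FPKM in 5-FU against 0.178 and 0.111 FPKM in PBS (adjusted p = 0.00380). It reached 1 FPKM in 5-FU only. Gadd45b, a stress gene, rose 2.13-fold, to 30.7 ± 2.51 FPKM in 5-FU against 14.4 ± 1.48 FPKM in PBS (SD, n = 2 each). The colony-stimulating factor gene Csf2 rose 4.5-fold (0.94 log2), to 1.63 FPKM in 5-FU against 0.362 FPKM in PBS. The chemokine gene Cxcl10 rose 2.75-fold (1.53 log2), to 322 FPKM in 5-FU against 117 FPKM in PBS. Nos2, the inducible nitric oxide synthase gene, fell 9.71-fold, to 4.81 and 4.03 FPKM in 5-FU against 25.8 and 60.0 FPKM in PBS (adjusted p = 0.00652). Cxcl5 fell to 0.102 FPKM in 5-FU against 2.01 FPKM in PBS, and reached 1 FPKM in PBS only. The caspase inhibitor gene Cflar and the chemokine gene Cxcl1 fell by 1.26 and 0.93 log2. Members of this list are targets of other factors as well, and its counts are not a readout of NF-kB alone.

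**Figure D4:**
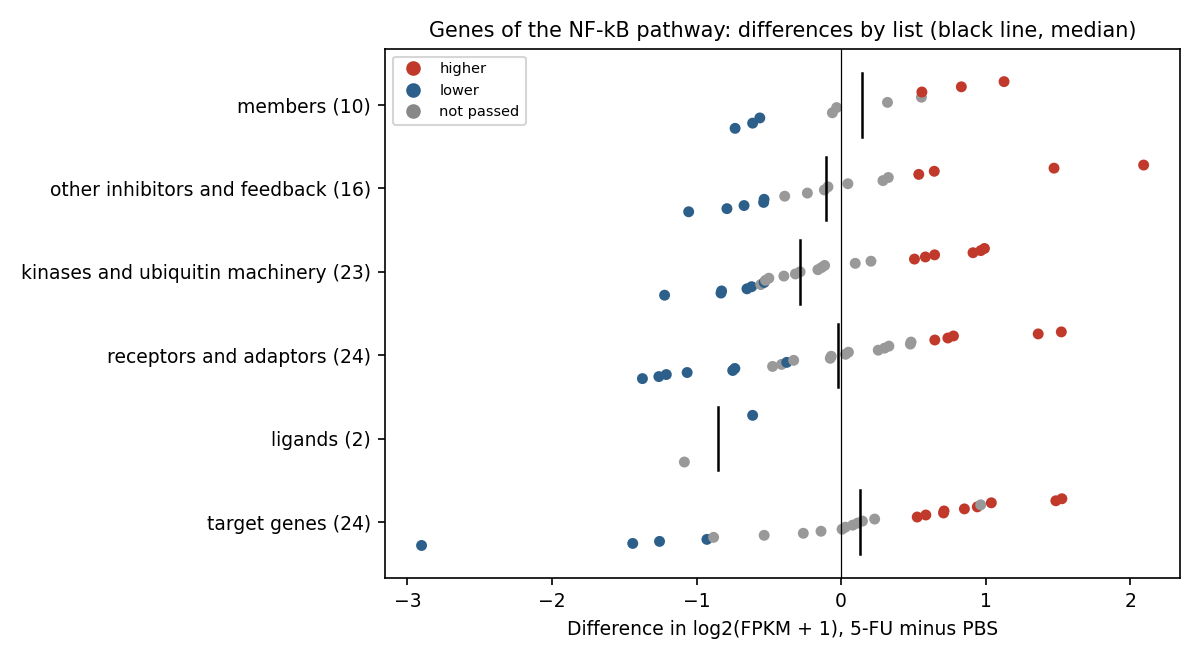
Difference in log2(FPKM + 1), 5-FU minus PBS, for the 10 genes (top row, labelled members) and the tested genes of the 5 pathway lists, with the number tested in brackets; red passed as higher, blue as lower, grey did not pass, and the black line is each list's median. Each list except the ligands holds genes on both sides of 0, with Nfkbid highest at 2.09 and Nos2 lowest at -2.90.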

How the data were processed

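RNA of MC38 cells was sequenced after selection of polyadenylated RNA, in 2 5-FU and 2 PBS libraries, per the labels' protocols. The authors deposited 1 table of FPKM values for 36445 genes; STAR 2.4.1a, Picard 2.9.0 and GRCm38 are named, without roles, in the submitters' processing notes. The counting program, annotation and strand setting are not stated in the sources at hand. GENCODE release M21 held 36295 of the gene IDs. Depth was estimated from the commonest smallest step of FPKM times exonic length; 63.1% to 65.1% of values under 100 reads then lay within 0.02 of a whole read, so reads given are approximate and no count test was run. Lower depth in 5-FU widens counting error of low genes. limma 3.58.1 in R 4.3.3 (lmFit, eBayes with trend) was run on log2(FPKM + 1) for genes that reached 1 FPKM in 2 or more libraries, two-sided, with Benjamini-Hochberg adjustment over all tested genes, and was tested on simulated data. Folds are ratios of mean FPKM. An exact permutation test of 2 against 2 cannot go below 0.333, so none was run. All 10 genes are named; from each pathway list up to 4 passing genes per direction with the largest difference are named, and the nearest 3 profiles to the gene with the largest difference. Other genes named were chosen after their values were seen. The 10 genes and the lists were chosen with earlier results of these data known.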

Additional observations from a re-analysis of the deposited data

How the results depend on the processing

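Rela, Nfkbib, Nfkbia, Nfkb1, Nfkb2 and Birc3 kept their direction under each of the alternatives in which they were tested (13, and 12 for Birc3, whose mean is under 5 FPKM). The difference of Nfkbie was positive in 4 and negative in 8 of its 12 alternatives. It was 0.50 log2 without PBS replicate 1 and -0.62 log2 without PBS replicate 2. The difference of Tnfaip3 was likewise positive in 4 and negative in 8 of 12. When each library was left out in turn, the 10 genes held 0 to 6 higher and 0 to 4 lower, the pathway lists 1 to 34 higher and 0 to 38 lower, and all tested genes 259 to 4385 higher and 237 to 5249 lower. The low ends come from leaving out a 5-FU library, where the wider PBS pair alone supplies the spread and the lone 5-FU library is assumed to vary likewise; the high ends come from leaving out a PBS library, where the closer 5-FU pair alone supplies it. With no filter on low values limma called 1 of the 10 higher (Nfkbib) and 0 lower, against 4 and 3 at an unadjusted p under 0.05, and 14 pathway genes lower, with more genes tested. Median-ratio scaling gave 5 of the 10 higher, beside 3081 of 11644 tested genes. Quantile normalization gave 14 pathway genes lower, and a mean of at least 5 FPKM left 2158 genes lower among 7651 tested; the cause of the quantile count was not tested. The median difference of all tested genes moved to 0.021 log2 with quantile normalization and -0.198 after removal of mitochondrial and ribosomal protein genes. The replicate numbers do not pair the libraries (correlation of deviations -0.01); with the replicate block 3 of the 10 were higher and 3 lower, the same genes, and 24 pathway genes were higher and 22 lower. Depth limits Birc3 most, at 60 reads in 5-FU replicate 1.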
